A study of Homo sapiens with 24 samples.

Results

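The dual-specificity MAP kinase phosphatases are enzymes that switch MAP kinases off, and 10 of their genes were followed here: DUSP1, DUSP2, DUSP4, DUSP5, DUSP6, DUSP7, DUSP8, DUSP10, DUSP16 and DUSP26. They were listed by symbol and found by their Ensembl identifiers among the 60675 genes counted in each library. DUSP1 and DUSP26 were chosen by their measured rises in the treated libraries, so their values are given as a description with no test, and the other 8 genes were tested. The study asked how RNA levels change in human triple-negative breast cancer cells that have lost MDM2, a ubiquitin ligase. The cells were MDA-MB-231 and a second established line, MDA-MB-436. Each line was sequenced with a non-targeting shRNA, with an MDM2 shRNA, with DMSO vehicle and with YX-2-30, an MDM2 PROTAC, a molecule built to bring MDM2 to a ubiquitin ligase for degradation. There were 3 libraries in each of the 8 groups, 24 in all, from total RNA of cells grown in DMEM with serum. The hairpin sequence, the number of hairpins or clones, the PROTAC dose and the length of treatment are not stated in the labels.

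MAP kinases are activated when a kinase phosphorylates a threonine and a tyrosine in the activation loop, and these phosphatases remove both groups. Several of the genes are themselves transcribed in response to MAP kinase activity and form a negative feedback. By textbook grouping, DUSP1, DUSP2, DUSP4 and DUSP5 encode inducible nuclear enzymes, DUSP6 and DUSP7 encode cytoplasmic enzymes selective for ERK, and DUSP8, DUSP10 and DUSP16 encode enzymes that prefer JNK and p38. DUSP26 is an atypical, smaller member that lacks the MAP kinase binding domain of the others.

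Of the 10 genes, 7 had an entry in the RefSeq promoter table (GRCh38.p14), and the 250 bases before their start sites were searched on both strands for 7 short motifs (8 windows, since DUSP10 has 2 starts). DUSP4, DUSP5 and DUSP26 had no entry and were not searched. The windows of DUSP1 and DUSP8 are shown because they were the ones that held the cyclic AMP response element TGACGTCA, and that of DUSP6 because it held none of the motifs and is the gene that rose from near silence in MDA-MB-436. The windows are chr5:172771196-172771445 for DUSP1, chr11:1572272-1572521 for DUSP8 and chr12:89352502-89352751 for DUSP6, all on the minus strand, just upstream of the first exon in RefSeq. The GENCODE 29 gene of DUSP6 reaches past that start, to 89353271, and that of DUSP8 begins downstream of its RefSeq start, at 1571920. Distances below are from the RefSeq starts. The windows are written 5′ to 3′, and capitals mark the response element and its shorter forms TGACG and CGTCA.
DUSP1: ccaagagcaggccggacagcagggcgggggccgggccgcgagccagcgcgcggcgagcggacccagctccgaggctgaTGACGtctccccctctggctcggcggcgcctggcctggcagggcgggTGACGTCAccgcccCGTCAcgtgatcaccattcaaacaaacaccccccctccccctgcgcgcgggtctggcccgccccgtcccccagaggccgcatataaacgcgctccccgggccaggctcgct
DUSP8: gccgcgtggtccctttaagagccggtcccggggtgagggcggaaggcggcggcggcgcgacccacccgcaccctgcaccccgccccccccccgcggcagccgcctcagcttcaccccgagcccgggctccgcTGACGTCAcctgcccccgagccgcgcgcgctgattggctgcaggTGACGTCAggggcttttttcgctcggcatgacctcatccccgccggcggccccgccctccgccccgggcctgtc
DUSP6: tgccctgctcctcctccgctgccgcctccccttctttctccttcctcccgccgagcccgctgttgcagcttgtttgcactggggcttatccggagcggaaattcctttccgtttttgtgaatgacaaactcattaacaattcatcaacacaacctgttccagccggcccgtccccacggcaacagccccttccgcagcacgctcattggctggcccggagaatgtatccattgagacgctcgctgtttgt
DUSP1 held 1 full element and 4 shorter matches, which lay 172, 125, 122 and 111 bases before the start, and the matches at 125 and 122 are the overlapping arms of the full element. DUSP8 held 2 full elements, whose arms lay 118 and 115 bases and 74 and 71 bases before the start. Over the 35116 windows of that length in the table, 1.6% held TGACGTCA and 21.2% held TGACG or CGTCA. DUSP1 also held 1 TATA box, searched as TATAAA on either strand (in 10.7% of windows), and 1 CACGTG (in 6.3% of windows), the latter overlapping a CGTCA. DUSP2 held 1 CACGTG. The windows of DUSP6, DUSP7, DUSP10 and DUSP16 held none of the 7. The remaining searches were for TGACTCA (4.2% of windows) and CCGGAA (14.5%), each on either strand, and the CArG box (1.2%), and they matched in none of the members' windows. A match describes letters in a window and is not evidence that a factor binds there.

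Before the comparisons, the libraries themselves need describing. Totals ran from 33413988 to 174744841 counts, and values are given as counts per 1e6 counts (CPM) normalised between libraries of a line. MDM2, the target of the hairpin, was not called lower in the shRNA libraries that carry its name. It stood in MDA-MB-231 at 19.6, 22.4 and 11.2 CPM with the non-targeting hairpin and at 24.3, 23.3 and 30.3 CPM in the libraries labelled MDM2 shRNA (log2 change 0.55 ± 0.24 SE, edgeR adjusted p = 0.137). Values in MDA-MB-436 were 22, 30.6 and 23.8 CPM against 14.8, 28.6 and 27.5 CPM (-0.11 ± 0.22, edgeR adjusted p = 0.78). After the PROTAC the change was 0.26 ± 0.24 (edgeR adjusted p = 0.513) and -0.61 ± 0.22 (edgeR adjusted p = 0.0573), in the order of the lines above. The latter passed in 4 of 16 alternatives, with a filter of 1 CPM (0.0476), DESeq2 (0.0236), counts divided by 4 (0.048) and the 6 libraries of the comparison alone (0.0188), in a range up to 0.184. RNA does not show what a degrader does to its protein, and the shRNA groups are called by their labels throughout. Few genes separated the control groups of a line, or its treated groups. DMSO libraries differed from non-targeting libraries in 0 of 20675 genes in MDA-MB-231 by edgeR, with 903 (4.37%) at an unadjusted p under 0.05. In MDA-MB-436 they differed in 4 of 22663 genes, with 2579 (11.4%) at an unadjusted p under 0.05. DESeq2 called more, 21 higher and 19 lower in the former line and 80 higher and 68 lower in the latter. PROTAC libraries set directly against libraries labelled MDM2 shRNA differed in 3 of 20675 and 1 of 22663 genes. As a distance, the median chi-square per degree of freedom between 2 libraries of MDA-MB-231 was 53.7 within a group, 48.5 between PROTAC and MDM2 shRNA libraries, 63.2 between DMSO and non-targeting libraries and 140.4 between treated and control libraries. In MDA-MB-436 these were 53.7, 75.4, 68.3 and 276.8. The 3 PROTAC libraries of MDA-MB-436 lay further apart, at 103.71, 116.98 and 91.99, where libraries of any other group were at most 68.55 apart. The measure also grows with the depth of the libraries. Why so few genes separated groups of unlike treatment was not tested, so changes under the hairpin and under the PROTAC are not counted here as independent of each other. The labels call the cells epithelial. KRT8 (median 324.6 CPM in controls of MDA-MB-231 and 532.0 CPM in those of MDA-MB-436) and KRT18 (217.3 and 422.2) were high, but CDH1, the epithelial cadherin, was at 0.075 and 0.221 CPM, while VIM, a mesenchymal filament, was at 4613.6 and 960.7 CPM. CDH2, the mesenchymal cadherin, was at 0.444 CPM in MDA-MB-231 and at 155.2 CPM in the other line. The summed level of 8 epithelial markers ran from 1116.8 to 1205.4 CPM in control and from 1022.2 to 1081.6 CPM in treated libraries of MDA-MB-231, and from 867.1 to 1127.7 and 480.0 to 604.1 CPM in MDA-MB-436. That of 5 mesenchymal markers went from 6839.1 to 8460.5 down to 4303.4 to 4605.6 CPM in MDA-MB-231, and from 1330.4 to 1562.3 down to 1026.3 to 1118.6 CPM in MDA-MB-436. The sum of 5 fibroblast markers, with DCN at 0, was low and went up, from 18.3 to 22.5 CPM to 34.5 to 39.9 CPM in MDA-MB-231 and from 4.83 to 7.17 CPM to 7.7 to 10.9 CPM in MDA-MB-436. Not every gene followed its sum. FN1 rose in MDA-MB-231 (median 250.5 to 315.6 CPM) while the mesenchymal sum fell. In MDA-MB-436, EPCAM (4.16 to 6.27 CPM) and KRT7 (10 to 26 CPM) rose while the epithelial sum fell, and COL1A1 stayed level (4.91 and 4.92 CPM). The part of these shifts in the results below was not tested. Nothing in the labels ties the 3 libraries of a group to separate cultures, and p-values therefore measure the spread between these libraries, which may be technical. In bulk RNA, a change in the share of cells that express a gene and a change per cell cannot be told apart.

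In MDA-MB-231, the DUSP4 transcript fell to 0.671 and 0.647 of its control level while those of DUSP8 and DUSP10 rose under both treatments. In MDA-MB-436, DUSP6, DUSP8, DUSP10 and DUSP16 rose under both. DUSP1 stood above its controls in every treated library of both lines. Here and below, whether groups of libraries overlapped is a description. The share of all genes that separate in the same way was not counted. The DMSO and non-targeting libraries also did not overlap for DUSP8 in MDA-MB-231 and for DUSP4, DUSP5, DUSP8 and DUSP16 in MDA-MB-436. None of these differences between controls passed the edgeR test. Of the 8 tested genes, 3 rose and 2 fell in the MDA-MB-231 libraries labelled MDM2 shRNA, where 22.7% of all genes were called (11.1% higher and 11.6% lower), called meaning an edgeR adjusted p under 0.05. With the PROTAC in MDA-MB-231, 3 rose and 1 fell, against 22.6% of all genes called (11.1% higher and 11.5% lower). In MDA-MB-436, DUSP2 was too low to test, and of the other 7 genes 4 rose and 0 fell with the MDM2 shRNA label, against 30.4% of all genes called (16% higher and 14.4% lower). With the PROTAC 5 rose and 0 fell, against 32.4% called (17.3% higher and 15.1% lower). The median log2 change over the tested members was 0.087 and 0.11 in MDA-MB-231 and 0.83 and 0.67 in MDA-MB-436, where the medians over all genes were 0.014, -0.006, 0.04 and 0.043. Without scaling between libraries all genes shifted up, to medians of 0.11, 0.077, 0.22 and 0.21. The share of called genes that were higher then moved from 48.8%, 49.1%, 52.5% and 53.4% to 68%, 65.6%, 72.8% and 70.9%.

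**Figure D1:**
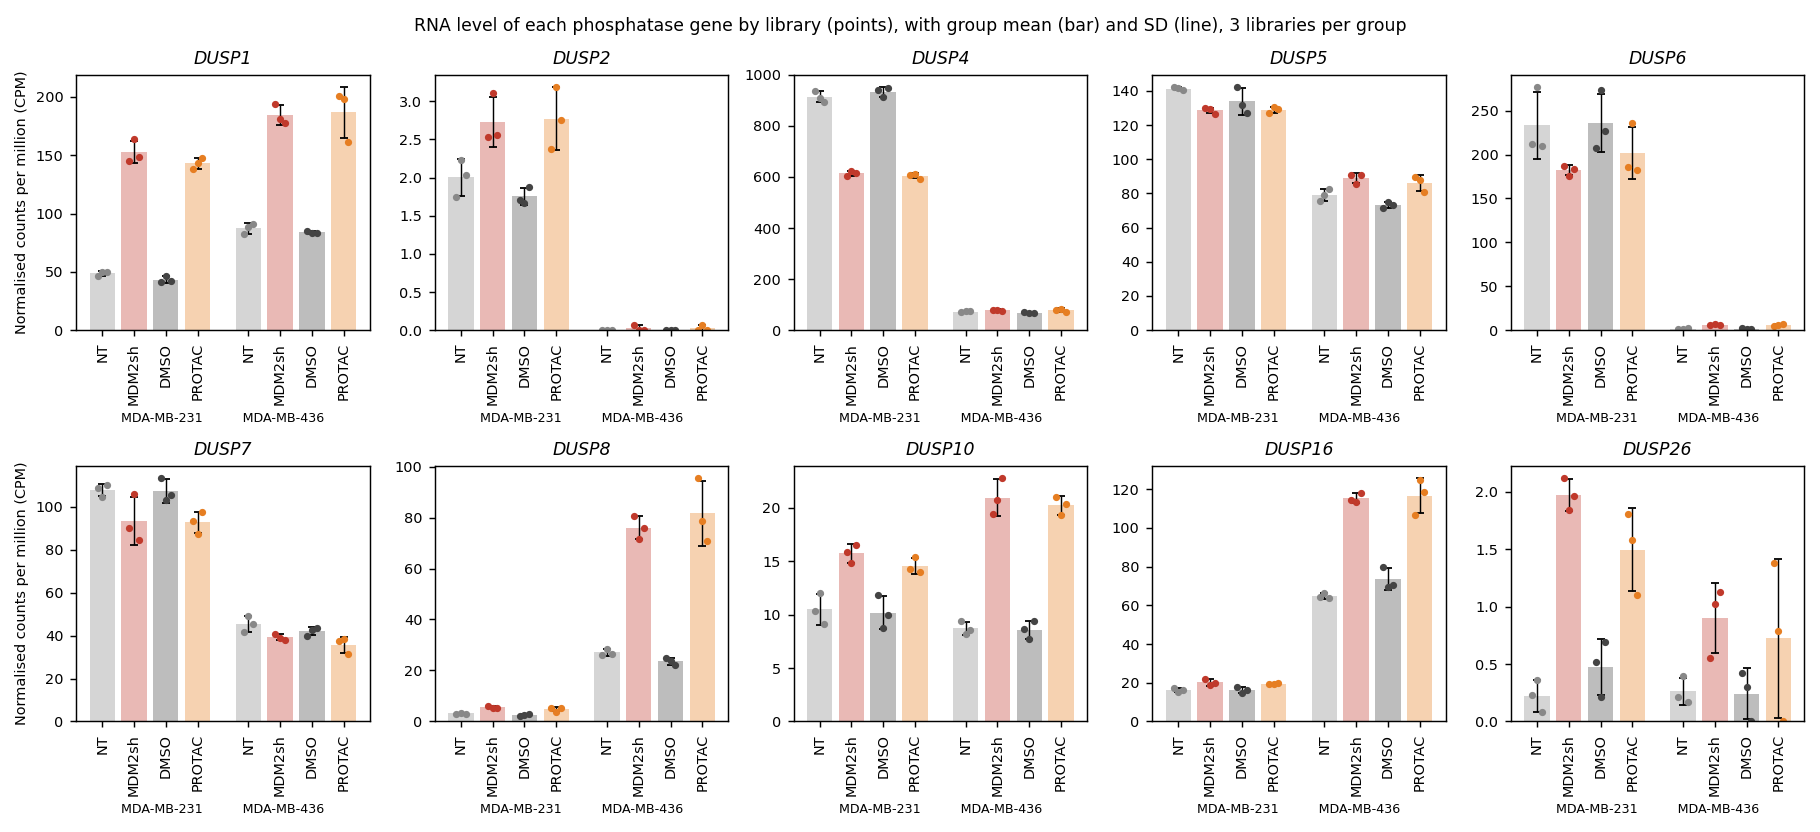
Normalised CPM (vertical axis, linear, one scale per gene) of the 10 phosphatase genes in the 8 groups (horizontal axis: NT, non-targeting shRNA; MDM2sh, labelled MDM2 shRNA; DMSO; PROTAC). Points are libraries, bars means and lines SD over 3 libraries. DUSP4 in MDA-MB-231 drops from a mean of 914.7 to 613.5, and DUSP8 in MDA-MB-436 climbs from 27.1 to 76.

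DUSP1 encodes an immediate-early phosphatase that acts on p38, JNK and ERK in the nucleus. In MDA-MB-231 it stood at 46.4, 50 and 50.3 CPM with the non-targeting hairpin and at 145.5, 163.9 and 148.9 CPM in the libraries labelled MDM2 shRNA. The DMSO libraries stood at 41, 46.5 and 42.4 CPM and the PROTAC libraries at 138.6, 143.1 and 147.7 CPM. Every treated library lay far above every control library of this line, with fitted ratios of 3.12 and 3.3. In MDA-MB-436 the controls were higher to begin with, at 82.1, 88.7 and 91.1 CPM (non-targeting) and 85.3, 83.7 and 83 CPM (DMSO). The libraries labelled MDM2 shRNA stood at 194.2, 181.1 and 178.1 CPM and the PROTAC libraries at 201.1, 198.0 and 161.8 CPM, with ratios of 2.11 and 2.23. The lowest treated value came from PROTAC replicate 3, which was also the smallest library, at 33413988 counts. The gene (ENSG00000120129) lies on chromosome 5 at 172768090 to 172771195, minus strand, with 4 exon blocks in GENCODE 29 on GRCh38.

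DUSP4 (ENSG00000120875, chromosome 8, 29333064 to 29350668) encodes a nuclear phosphatase of ERK and JNK, and it was the most abundant of the 10 transcripts per length in MDA-MB-231 controls. Its levels there were 937.9, 911.1 and 895.1 CPM with the non-targeting hairpin and 602.1, 622.4 and 616.1 CPM in the libraries labelled MDM2 shRNA. The DMSO libraries held 942.1, 911.8 and 948.0 CPM and the PROTAC libraries 608.3, 610.6 and 592.5 CPM. The 6 controls and the 6 treated libraries formed tight, separate sets. The fall was to 0.671 of control with the MDM2 shRNA label (log2 change -0.58 ± 0.031 SE, edgeR adjusted p = 3.48e-07) and to 0.647 with the PROTAC (-0.63 ± 0.031, edgeR adjusted p = 2.19e-07). In MDA-MB-436 the gene was far lower, at 70.9, 74.2 and 73.1 CPM (non-targeting), 80.1, 80.9 and 76.9 (labelled MDM2 shRNA), 69.9, 68.1 and 68.8 (DMSO) and 79.6, 83.7 and 69.3 CPM (PROTAC). Neither change passed the test (0.12 ± 0.072, edgeR adjusted p = 0.234, and 0.17 ± 0.072, edgeR adjusted p = 0.0959). The former passed in 1 of 16 alternatives, without scaling (0.00491), and the latter in 4, without scaling (0.00256), with a filter of 1 CPM (0.0482), with all 24 libraries in one fit (0.0394) and without PROTAC replicate 3. PROTAC replicate 3 was the single treated library inside the control range, and without it the PROTAC change was 0.24 with an edgeR adjusted p of 0.00616. The adjusted p of that change reached 0.357 at the highest over the 16 alternatives.

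DUSP5 (ENSG00000138166, chromosome 10, 110497838 to 110511544), a nuclear phosphatase specific for ERK, moved little. In MDA-MB-231 the non-targeting libraries held 142.2, 141.6 and 140.2 CPM and those labelled MDM2 shRNA 129.7, 129.3 and 126.7 CPM, a fall by 0.14 on the log2 scale (SE 0.043, edgeR adjusted p = 0.0438). That call was lost when any 1 of the 6 libraries was left out (adjusted p from 0.0692 to 0.127), and it held in 6 of 16 alternatives. The DMSO libraries spread over 142.4, 131.7 and 127.2 CPM and overlapped the PROTAC libraries at 127.1, 130.5 and 129.2 CPM (-0.053 ± 0.043, edgeR adjusted p = 0.456), and without scaling the sign turned (0.031). In MDA-MB-436 the controls stood at 75.6, 79.3 and 82.7 (non-targeting) and 71.6, 75.1 and 73.5 CPM (DMSO), and all treated values were higher within each pair of groups, at 90.7, 85.4 and 90.8 and at 89.7, 87.9 and 80.9 CPM. The PROTAC rise passed the test (0.23 ± 0.064, edgeR adjusted p = 0.0164) and the change with the MDM2 shRNA label did not (0.17 ± 0.064, edgeR adjusted p = 0.0709). The latter passed in 4 of 16 alternatives, with DESeq2 (0.0391), a filter of 1 CPM (0.0351), counts divided by 4 (0.0423) and no scaling (0.00108), in a range up to 0.353. The PROTAC call was lost without DMSO replicate 1 (adjusted p = 0.0634), PROTAC replicate 1 (0.0612) or PROTAC replicate 2 (0.0633), with no filter (0.117) and with the 6 libraries alone (0.0673), its lowest value being 0.0004.

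DUSP2 (ENSG00000158050, chromosome 2, 96143166 to 96145440), known from activated leukocytes, was close to silent. MDA-MB-231 held 1.75, 2.23 and 2.03 CPM (non-targeting), 2.53, 3.11 and 2.56 (labelled MDM2 shRNA), 1.71, 1.67 and 1.88 (DMSO) and 2.37, 3.19 and 2.76 CPM (PROTAC). Treated and control libraries did not overlap in either pair of groups. The rise with the PROTAC passed the test (0.66 ± 0.16, edgeR adjusted p = 0.013), and the change with the MDM2 shRNA label did not (0.45 ± 0.16, edgeR adjusted p = 0.074). Without scaling the latter was 0.55 on the log2 scale and passed (edgeR adjusted p = 0.0306). The PROTAC call was lost without PROTAC replicate 2 (adjusted p = 0.0555) and when all 24 libraries were fitted together (0.536), with 0.00298 as the lowest of its alternatives. In MDA-MB-436 all 6 control libraries had 0 counts, and the treated libraries had 6 counts (in 1 library labelled MDM2 shRNA) and 9 counts (in 1 PROTAC library).

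DUSP6 (ENSG00000139318, chromosome 12, 89347232 to 89353271) encodes the cytoplasmic phosphatase that dephosphorylates ERK and is widely used as a readout of ERK activity. In MDA-MB-436 it was barely expressed in controls, at 1.8, 1.83 and 2 CPM (non-targeting) and 2.17, 1.38 and 1.54 CPM (DMSO). It stood at 5.86, 6.59 and 5.97 CPM in the libraries labelled MDM2 shRNA and at 4.54, 5.86 and 6.71 CPM with the PROTAC, so that the lowest treated library was above the highest control. The rises were 3.27-fold (log2 1.71 ± 0.20, edgeR adjusted p = 6.06e-05) and 3.36-fold (1.75 ± 0.20, edgeR adjusted p = 5.13e-05). DUSP6 in MDA-MB-231 was abundant and uneven, at 211.8, 277.3 and 210.3 CPM (non-targeting), 187.4, 175.8 and 183.8 (labelled MDM2 shRNA), 207.6, 273.0 and 227.3 (DMSO) and 186.4, 236.3 and 182.6 CPM (PROTAC). Replicate 2 was the highest of its group in 3 of these 4 groups. The changes were -0.35 ± 0.13 (edgeR adjusted p = 0.0871) and -0.23 ± 0.13 (edgeR adjusted p = 0.278), and neither passed the test, although DESeq2 gave an adjusted p of 0.0453 for the former (0.0354 to 0.277 over its alternatives). The antisense gene AC024909.2 overlaps 1875 of the exon bases of DUSP6. Whether counting used the strand is not known, so reads of the pair cannot be told apart, and counts assigned to AC024909.2 were 8.32 to 13.5 CPM in MDA-MB-231 libraries and at most 0.308 CPM in those of MDA-MB-436.

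DUSP7 (ENSG00000164086, chromosome 3, 52048919 to 52056550), the close relative of DUSP6, was lower in treated than in control means in all 4 comparisons but passed the test in 0 of them. MDA-MB-231 held 108.7, 104.6 and 110.0 CPM (non-targeting), 90.1, 105.8 and 84.5 (labelled MDM2 shRNA), 113.4, 103.0 and 105.5 (DMSO) and 93.4, 87.4 and 97.4 CPM (PROTAC). MDA-MB-436 held 41.7, 49.1 and 45.5, then 40.9, 39.1 and 38.1, then 39.8, 42.8 and 43.5, and 37.5, 38.2 and 31.5 CPM in the same order of groups. Groups overlapped in the first of the 4 comparisons only, through replicate 2 of the libraries labelled MDM2 shRNA. Such separation of 3 libraries from 3 is no test. In these comparisons 33.3% to 41.6% of all genes had an unadjusted edgeR p under 0.05. The log2 changes were -0.21 ± 0.078 (edgeR adjusted p = 0.0866) and -0.21 ± 0.078 (0.0779) in MDA-MB-231, and -0.21 ± 0.093 (0.123) and -0.23 ± 0.093 (0.0777) in MDA-MB-436. Without that replicate 2 the first change was -0.30 with an edgeR adjusted p of 0.00729, in a range up to 0.368 over the alternatives. The PROTAC changes passed in 1 of 16 alternatives each, with the 6 libraries alone in MDA-MB-231 (0.0499) and with DESeq2 in the other line (0.0474).

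DUSP8 (ENSG00000184545, chromosome 11, 1554044 to 1571920) encodes a phosphatase that acts on JNK and is best known from brain and heart. It had the largest log2 rise of the tested genes in MDA-MB-436 with the PROTAC and in MDA-MB-231 under both treatments. In MDA-MB-436 it stood at 26.2, 28.5 and 26.6 CPM with the non-targeting hairpin and at 80.6, 71.5 and 75.8 CPM in the libraries labelled MDM2 shRNA. The DMSO libraries held 25, 23.7 and 22.2 CPM and the PROTAC libraries 95.5, 78.8 and 70.6 CPM. The 6 treated libraries ran from 70.6 to 95.5 CPM and the 6 controls from 22.2 to 28.5 CPM. The rises were 2.8-fold (log2 1.49 ± 0.11, edgeR adjusted p = 1.89e-06) and 3.45-fold (1.79 ± 0.11, edgeR adjusted p = 5.03e-07). DUSP8 in MDA-MB-231 was low, at 2.99, 3.47 and 3.1 CPM (non-targeting), 6.1, 5.18 and 5.43 (labelled MDM2 shRNA), 2.13, 2.42 and 2.92 (DMSO) and 5.26, 3.9 and 5.41 CPM (PROTAC). Treated and control libraries were again separate, with rises of 1.75-fold (0.81 ± 0.16, edgeR adjusted p = 0.00425) and 1.95-fold (0.96 ± 0.16, edgeR adjusted p = 0.00144). The promoter windows of DUSP8 and DUSP1 carry TGACGTCA, while those of DUSP6, DUSP10 and DUSP16, which also rose in MDA-MB-436, do not. The part of the motif in any of these rises was not tested.

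DUSP10 (ENSG00000143507, chromosome 1, 221701424 to 221742176) encodes a phosphatase of JNK and p38 found in nucleus and cytoplasm. In MDA-MB-436 it stood at 9.38, 8.16 and 8.61 CPM (non-targeting) against 19.4, 20.7 and 22.8 CPM (labelled MDM2 shRNA), and at 8.64, 7.74 and 9.43 CPM (DMSO) against 21, 19.3 and 20.4 CPM (PROTAC). The lowest treated library was above the highest control by a wide margin, and the rises were 2.41-fold (log2 1.27 ± 0.11, edgeR adjusted p = 7.61e-06) and 2.35-fold (1.23 ± 0.11, edgeR adjusted p = 8.57e-06). MDA-MB-231 held 10.3, 12 and 9.16 CPM against 15.9, 14.8 and 16.5 CPM with the hairpins, and 11.8, 8.77 and 10 CPM against 14.3, 15.4 and 14 CPM with vehicle and PROTAC. These rises were smaller, 1.5-fold (0.58 ± 0.12, edgeR adjusted p = 0.00612) and 1.43-fold (0.51 ± 0.12, edgeR adjusted p = 0.0123). The latter call was lost without DMSO replicate 2 (adjusted p = 0.0539, the highest of its 16 alternatives, the lowest being 0.000949).

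DUSP16 (ENSG00000111266, chromosome 12, 12474210 to 12562383) encodes a cytoplasmic phosphatase of JNK. In MDA-MB-436 it stood at 64.1, 66.3 and 63.9 CPM (non-targeting) against 114.3, 113.6 and 118.2 CPM (labelled MDM2 shRNA), and at 79.9, 69.5 and 70.7 CPM (DMSO) against 106.7, 124.7 and 118.4 CPM (PROTAC). All treated libraries were above all controls, with rises of 1.78-fold (log2 0.83 ± 0.075, edgeR adjusted p = 9.10e-06) and 1.59-fold (0.67 ± 0.075, edgeR adjusted p = 4.28e-05). In MDA-MB-231 it stood at 17.2, 15.4 and 16.2 CPM against 22, 18.8 and 19.7 CPM with the hairpins and at 17.8, 14.6 and 16.2 CPM against 19.6, 19.3 and 19.8 CPM with vehicle and PROTAC. Groups did not overlap there either, but the differences were small. With the MDM2 shRNA label the rise was 0.31 ± 0.09 (edgeR adjusted p = 0.0294), a call lost on leaving out any 1 library but MDM2 shRNA replicate 2 (adjusted p from 0.0511 to 0.126), and it held in 9 of 16 alternatives. With the PROTAC the change was 0.27 ± 0.09 (edgeR adjusted p = 0.0511), and 8 of its 16 alternatives passed the threshold (0.0118 to 0.21).

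DUSP26 (ENSG00000133878, chromosome 8, 33591332 to 33600106) encodes an atypical phosphatase described in neural and endocrine tissue, and it was rare in every group, at most 2.12 CPM in a library. MDA-MB-231 controls held 0.234, 0.357 and 0.0794 CPM (non-targeting) and 0.519, 0.211 and 0.689 CPM (DMSO). The libraries labelled MDM2 shRNA held 2.12, 1.84 and 1.96 CPM and the PROTAC libraries 1.81, 1.58 and 1.1 CPM. All 6 treated libraries of this line were above all 6 controls, with fitted ratios of 8.71 and 3.12. In counts summed over a group, 53 became 368 and 104 became 286. In MDA-MB-436 the levels were 0.216, 0.399 and 0.173 CPM (non-targeting), 0.555, 1.02 and 1.13 (labelled MDM2 shRNA), 0.426, 0.304 and 0 (DMSO) and 1.38, 0.788 and 0 CPM (PROTAC). The last pair of groups overlapped, since replicate 3 of each had no count, and ratios were 3.47 (log2 1.79 ± 1.15 SE) and 3.07 (1.62 ± 1.17). The PROTAC ratio was 1.75 without PROTAC replicate 1, 2.04 without DMSO replicate 3 and 4.92 without DMSO replicate 1, and 5.13 by limma voom. The sum of 3 neuronal marker genes ran from 0.93 to 2.6 CPM in control and from 0.802 to 2.23 CPM in treated libraries of MDA-MB-231. For MDA-MB-436 the same sum ran from 9.6 to 12.9 and from 18.1 to 21.9 CPM, and the part of this sum in the values of DUSP26 was not tested.

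**Figure D2:**
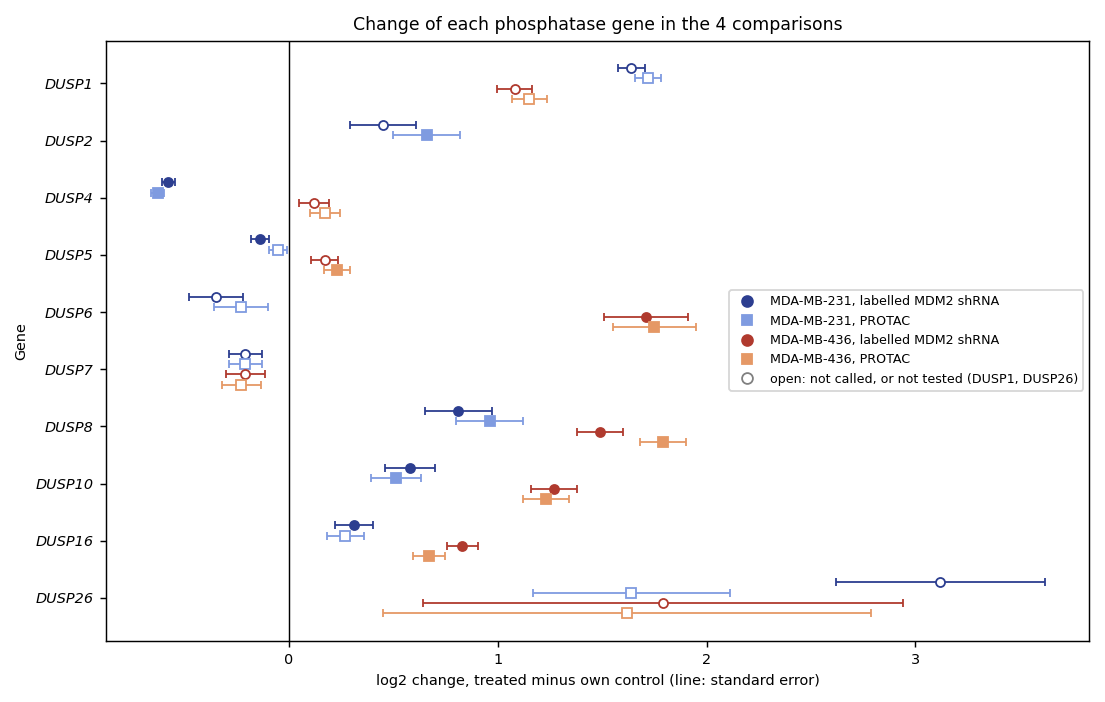
Log2 change (horizontal axis, treated minus own control, lines are standard errors) of each gene (vertical axis) in the 4 comparisons. Filled symbols passed the edgeR test, and DUSP1 and DUSP26 were not tested. DUSP4 lies left of 0 in MDA-MB-231 only, DUSP6 right of 0 in MDA-MB-436 only, and DUSP7 between -0.21 and -0.23 in all 4.

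Set side by side, the PROTAC and the MDM2 shRNA label gave close changes in each line, though the test bounds them loosely. The difference of the 2 effects passed the edgeR test in 0 of the 8 genes in MDA-MB-231 and 0 of 7 in MDA-MB-436 (0 at an unadjusted p under 0.05 in both, and 0 by DESeq2 and limma voom), where 0.00484% and 0.00441% of all genes were called. The largest difference was that of DUSP8 in MDA-MB-436, 0.30 on the log2 scale in favour of the PROTAC (95% interval -0.025 to 0.63). The widest interval was that of DUSP6 in MDA-MB-436 (-0.56 to 0.64). The tightest interval was that of DUSP4 in MDA-MB-231 (-0.15 to 0.042). DMSO against the non-targeting hairpin passed in 0 of 8 and 0 of 7 genes (0 and 1 at an unadjusted p under 0.05, that 1 being DUSP16 at 0.18), against 0% and 0.0176% of all genes.

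The treatment effects differed between the lines for 6 of the 8 tested genes, each in the direction of MDA-MB-436, under the MDM2 shRNA label (19.7% of all genes called, 9.94% in that direction and 9.77% in the other) and under the PROTAC (22.3%, with 11.8% and 10.5%). The difference was widest for DUSP6, whose effect was 2.04 ± 0.22 log2 units higher in MDA-MB-436 with the MDM2 shRNA label (edgeR adjusted p = 1.12e-06) and 1.98 ± 0.22 higher with the PROTAC (edgeR adjusted p = 1.86e-06). DUSP4, which fell in one line and not in the other, differed by 0.68 ± 0.091 (edgeR adjusted p = 1.45e-05) and 0.81 ± 0.091 (edgeR adjusted p = 1.87e-06). DUSP8, DUSP10 and DUSP16, grouped above with JNK and p38, rose more in MDA-MB-436. DUSP1, which also acts on these kinases and was not tested, had the larger ratios in MDA-MB-231 (3.12 and 3.3 against 2.11 and 2.23). DUSP10 differed by 0.67 and 0.72, DUSP8 by 0.66 and 0.83, and DUSP16 by 0.51 and 0.40 (edgeR adjusted p from 0.00299 to 0.0181). DUSP5 differed by 0.29 under each treatment (edgeR adjusted p = 0.0249 and 0.0216). The former call was lost without MDA-MB-231 non-targeting replicate 1, any MDA-MB-231 library labelled MDM2 shRNA, MDA-MB-436 non-targeting replicate 1 or 2, or MDA-MB-436 MDM2 shRNA replicate 1 or 3 (adjusted p up to 0.0787). The latter was lost without replicate 1 of any of the DMSO and PROTAC groups or without MDA-MB-436 PROTAC replicate 2 (up to 0.0848), and with no filter (0.0978). For DUSP8 with the MDM2 shRNA label the call was lost without MDM2 shRNA replicate 2 of MDA-MB-231 (0.0517) or replicate 1 of MDA-MB-436 (0.0512), and by limma voom (0.0576). For DUSP16 with the PROTAC it was lost without MDA-MB-231 DMSO replicate 1 (0.064), MDA-MB-436 DMSO replicate 2 (0.0526) or PROTAC replicate 2 (0.0514), and with no filter (0.0746). For DUSP7 no difference was called (-0.016 in each, 95% interval -0.30 to 0.26). DUSP2 did not pass and, being at 0 in the MDA-MB-436 controls, has no interpretable difference.

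The lines also differed at baseline, and all 8 tested genes passed in a comparison of the 6 controls of each line, where 66.8% of all genes were called (35.9% higher and 30.9% lower in MDA-MB-436). For this comparison CPM was scaled over all 24 libraries. DUSP6 had a median of 224.2 CPM in MDA-MB-231 controls (212.0 to 283.0) and of 1.77 CPM in MDA-MB-436 (1.34 to 2.1), a 136.5-fold gap (log2 -7.09 ± 0.14, edgeR adjusted p = 1.33e-19). DUSP4 stood at 943.7 CPM (912.7 to 967.9) and 68.5 CPM (66 to 74.5), a 13.6-fold gap (edgeR adjusted p = 8.13e-22). DUSP5 and DUSP7 were also lower in MDA-MB-436, by 0.91 and 1.36 log2 units, and DUSP2 was at least 288.3-fold lower against a floor of 3 counts over the 6 libraries. Of the genes grouped above with JNK and p38, DUSP8 and DUSP16 were higher in MDA-MB-436 and DUSP10 was lower. DUSP8 was 8.64-fold higher in MDA-MB-436 (3.02 against 24.9 CPM, edgeR adjusted p = 5.77e-16) and DUSP16 4.09-fold higher (16.5 against 66.3 CPM, edgeR adjusted p = 6.63e-17). DUSP10 was 1.24-fold lower in MDA-MB-436 with overlapping ranges (8.94 to 12.3 against 7.51 to 9.19 CPM, edgeR adjusted p = 0.00271). DUSP1 was 1.79-fold higher in MDA-MB-436 controls with separate ranges, and DUSP26 overlapped.

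Levels of different genes were compared as CPM per 1000 exon bases, with all annotated exon bases of a gene counted once. This length can exceed that of the transcript expressed, so close ranks can depend on the annotation. In MDA-MB-231 controls DUSP4 led at a median of 127.4, followed by DUSP5 at 53.9 and DUSP6 at 47.4, whose ranges overlapped, then DUSP1 at 23 and DUSP7 at 19. DUSP10 (3.49) and DUSP16 (2.83) overlapped, and DUSP2 (0.939), DUSP8 (0.64) and DUSP26 (0.144) closed the order with separate ranges. In the treated libraries of this line DUSP1 stood at 72.6, next after DUSP4 at 84. In MDA-MB-436 controls the order was DUSP1 at 41.9, DUSP5 at 28.8, DUSP16 at 11.9, DUSP4 at 9.7, DUSP7 at 7.64, DUSP8 at 5.54 and DUSP10 at 2.96, with no overlap between neighbours, then DUSP6 at 0.391, and DUSP26 at 0.127 and DUSP2 at 0, whose ranges touched. After treatment DUSP1 stood at 92.9, DUSP5 at 34 and DUSP16 (20.3) overlapped with DUSP8 (16.7), which had passed DUSP4 (11) and DUSP7 (6.75).

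**Figure D3:**
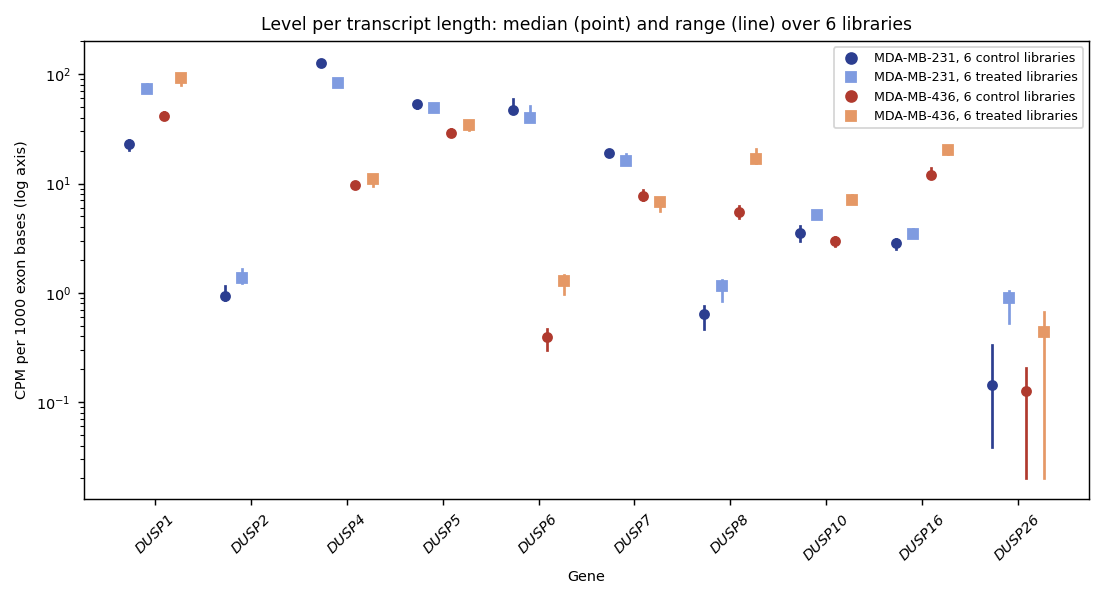
CPM per 1000 exon bases (vertical axis, log scale) of each gene (horizontal axis) in the 6 control and 6 treated libraries of each line; points are medians and lines ranges. Medians of 0 (DUSP2 in MDA-MB-436) are not drawn, and ranges that reach 0 are cut at the lower end of the line. DUSP4 spans 127.4 in MDA-MB-231 controls to 9.7 in MDA-MB-436 controls.

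Because these phosphatases both answer to and restrain MAP kinases, a list of 16 genes transcribed downstream of ERK was measured beside them. In MDA-MB-231, 2 rose and 6 fell under each treatment, and in MDA-MB-436, 3 rose and 5 fell with the MDM2 shRNA label and 2 rose and 6 fell with the PROTAC. Each count is 50% of the list, where 22.7%, 22.6%, 30.4% and 32.4% of all genes were called. The medians were -0.15, -0.14, -0.20 and -0.16, below those of all genes. Cyclin D1 (CCND1), which drives entry into the cell cycle, fell in all 4 comparisons, by 0.80 and 0.86 log2 units in MDA-MB-231 and 0.87 and 0.95 in MDA-MB-436. The AP-1 factor FOSL1 fell by 1.22 and 1.30 in MDA-MB-231, from 329.5 ± 9.64 to 141.5 ± 2.91 CPM and from 344.6 ± 33.9 to 139.5 ± 2.71 CPM (SD, n = 3), and by 0.86 and 0.41 in MDA-MB-436. PHLDA1 fell by 0.82 and 0.81, and by 0.51 and 0.43. EGR1, an immediate-early zinc finger factor, went the other way and rose most in MDA-MB-436, from 7.68 ± 0.5 to 88.8 ± 4.11 CPM (3.53 ± 0.10 SE, edgeR adjusted p = 4.20e-09) and from 8.29 ± 1.03 to 93.7 ± 4.07 CPM (3.50 ± 0.10, edgeR adjusted p = 4.48e-09). In MDA-MB-231 EGR1 rose by 0.44 and 0.35. The list therefore did not move as one, and DUSP4 in MDA-MB-231 lay on the side of the genes that fell and DUSP6 in MDA-MB-436 on that of EGR1.

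**Figure D4:**
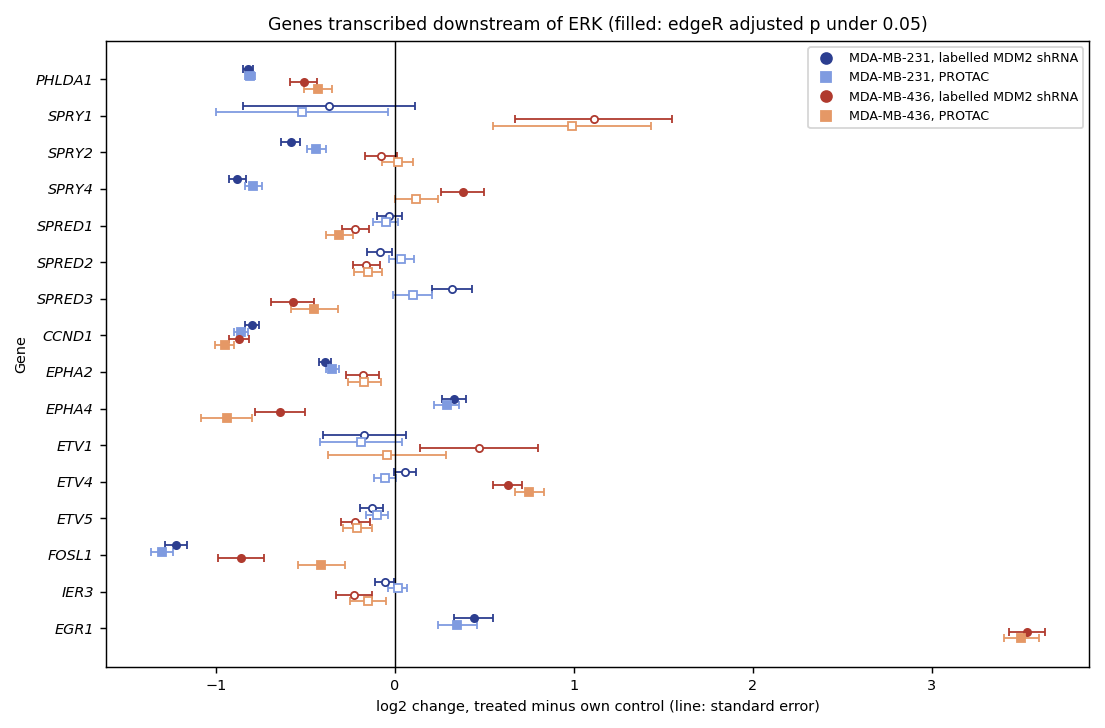
Log2 change (horizontal axis, treated minus own control, lines are standard errors) of the 16 genes downstream of ERK (vertical axis) in the 4 comparisons, filled where the edgeR adjusted p was under 0.05. CCND1, FOSL1 and PHLDA1 lie left of 0 in all 4, and EGR1 lies at 3.53 and 3.50 in MDA-MB-436.

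The kinases themselves were read next. Of 14 MAP kinase genes, 12 were tested in MDA-MB-231, and 1 rose and 1 fell with the MDM2 shRNA label and 1 rose and 0 fell with the PROTAC. MAPK11, which encodes p38 beta, was the riser, from 4.11 ± 0.828 to 6.61 ± 0.475 CPM and from 3.46 ± 0.751 to 6.95 ± 0.7 CPM (SD, n = 3). In MDA-MB-436, 13 were tested, and 1 rose and 4 fell with the MDM2 shRNA label and 0 rose and 3 fell with the PROTAC. The shares called were 16.7%, 8.33%, 38.5% and 23.1% in the 4 comparisons, against 22.7%, 22.6%, 30.4% and 32.4% of all genes, and the medians were 0.049, 0.075, -0.079 and -0.057. The 3 that fell under both there were MAPK9, which encodes JNK2 (-0.38 and -0.34), MAPK6, an atypical ERK (-0.41 and -0.46), and NLK (-0.48 and -0.41). Upstream, MAP2K4, a kinase that activates JNK, fell in all 4 comparisons (-0.29, -0.34, -0.72 and -0.69). MAP2K5, which activates ERK5, fell in MDA-MB-231 (-0.66 and -0.63). MAP2K6, an activator of p38, was rare, at 1.68 ± 0.593 CPM with the non-targeting hairpin in MDA-MB-231, and had 0 counts in the 3 libraries labelled MDM2 shRNA, at least 104.1-fold lower against a floor of 3 counts over the group (edgeR adjusted p = 6.92e-06). It also fell with the PROTAC in both lines (-2.46 and -2.38). BRAF rose in MDA-MB-436 (0.78 ± 0.093, edgeR adjusted p = 7.37e-05, and 0.56 ± 0.093, edgeR adjusted p = 0.000734). Over the 12 genes for MAP kinase kinases and RAF, 11 were tested in MDA-MB-231 with 0 up and 3 down, then 0 up and 4 down, and 12 in MDA-MB-436 with 1 up and 1 down, then 1 up and 2 down. That is 27.3%, 36.4%, 16.7% and 25% called, beside the same shares of all genes.

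Other phosphatases of the same pathway were counted too. Of 16 further dual-specificity phosphatase genes, 2 rose and 2 fell, then 1 rose and 1 fell, among 13 tested in MDA-MB-231, and 4 rose and 2 fell, then 4 rose and 1 fell, among 14 in MDA-MB-436. The shares called were 30.8%, 15.4%, 42.9% and 35.7%, against 22.7%, 22.6%, 30.4% and 32.4% of all genes. DUSP15 was called higher in MDA-MB-436, where it went from 2.65 ± 0.421 to 8.01 ± 0.89 CPM and from 2.39 ± 0.0889 to 7.42 ± 2.84 CPM (SD, n = 3) and was too low to test in MDA-MB-231. DUSP9, another ERK-directed MAP kinase phosphatase, fell in MDA-MB-436 (-0.86 ± 0.16, edgeR adjusted p = 0.00143, and -0.65 ± 0.16, edgeR adjusted p = 0.00711), against the direction of DUSP6 there. DUSP11 rose in 3 of the 4 comparisons (0.44, 0.54 and 0.63, and 0.21 for the PROTAC in MDA-MB-231). DUSP14 rose in MDA-MB-231 (0.39 and 0.25). Its changes in MDA-MB-436 were of like size, 0.34 and 0.33, and did not pass (edgeR adjusted p = 0.0513 and 0.0532). Of 9 genes for further phosphatases that act on MAP kinases, a list that again holds DUSP9, 7 were tested in MDA-MB-231, with 2 up and 1 down, then 2 up and 0 down, and 8 in MDA-MB-436, with 2 up and 2 down each time, DUSP9 being 1 of those that fell. That is 42.9%, 28.6%, 50% and 50% called, against 22.7%, 22.6%, 30.4% and 32.4% of all genes. PPM1D, a serine and threonine phosphatase of p38, rose in all 4 (0.44, 0.50, 1.11 and 1.14), and so did PTPRR, a tyrosine phosphatase of ERK (1.24, 1.36, 1.38 and 1.54). PPP2CA fell slightly in MDA-MB-436 (-0.23 and -0.18).

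DUSP1 is also induced by glucocorticoids and its messenger is unstable, so both kinds of gene were read. Of 10 glucocorticoid receptor targets, 9 were tested in each line. With the MDM2 shRNA label 3 rose and 2 fell in each line, and with the PROTAC 4 rose and 2 fell in each line. These are 55.6% of the list with the label and 66.7% with the PROTAC, where 22.7% to 32.4% of all genes were called. FKBP5 rose in all 4 (0.46, 0.62, 1.44 and 1.40), as did the clock gene PER1 (0.64, 0.61, 1.11 and 0.92). ERRFI1, a feedback inhibitor of the EGF receptor, fell in all 4 (-0.63, -0.64, -0.28 and -0.38), and the metallothionein MT2A fell in MDA-MB-231 (-1.26 and -1.40). Of 8 factors that act on AU-rich messengers, 1 rose and 2 fell, then 1 rose and 4 fell in MDA-MB-231, and 0 rose and 1 fell each time in MDA-MB-436. The shares called were 37.5%, 62.5%, 12.5% and 12.5%, against 22.7%, 22.6%, 30.4% and 32.4% of all genes. ZFP36L1, a decay factor, fell in MDA-MB-231 (-0.84 ± 0.092, edgeR adjusted p = 7.38e-05, and -0.67 ± 0.092, edgeR adjusted p = 0.000358), and ZFP36L2 rose slightly there (0.19 and 0.18). HNRNPD fell in MDA-MB-231 (-0.30 and -0.31) and ELAVL1, a stabilising factor, fell in MDA-MB-436 (-0.37 and -0.19) and with the PROTAC in MDA-MB-231 (-0.22).

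The genes whose pattern was nearest to a member were found among 13102 protein-coding genes by the root-mean-square difference in log2(CPM + 0.5) over the 24 libraries, with each line centred on its own mean. For DUSP1 they were SYNPO (0.162), NUAK2 (0.217) and AQP3 (0.221), where the median gene was at 0.756. For DUSP4 they were KIFC1 (0.07), MROH1 (0.0752) and KIFC3 (0.0833), with a median of 0.34. For DUSP5 they were VARS (0.0518), TIMM23 (0.0538) and MGLL (0.0597), with a median of 0.269, and DUSP5 itself varied by 0.0951. For DUSP6 they were AP3B2 (0.164), HSPBAP1 (0.174) and SNAPC1 (0.176), with a median of 0.619. The 24 libraries fall in 8 groups and are not independent points, and nothing is said of shared control.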

How the data were processed

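RNA-seq of 24 libraries, 3 in each of 8 groups taken from the labels, was used. The deposited files hold raw read counts per Ensembl gene, whole numbers with totals of 33413988 to 174744841 per library. The submitters' processing notes name cutadapt 2.4, HISAT2, StringTie, edgeR and GRCh38, with no role or order, and the library kit (NEBNext Ultra II RNA) is per the labels' protocols. The strand setting and the annotation are not given in the sources used here. Gene positions, exon lengths and symbols came from GENCODE 29.

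Counts were fitted with edgeR 4.0.16 (R 4.3.3): filterByExpr, TMM scaling and the quasi-likelihood test, with Benjamini-Hochberg adjustment over all genes tested and an adjusted p threshold of 0.05. The 12 libraries of a line were fitted together for comparisons within it, and all 24 for comparisons between lines. The 10 members and all gene lists were chosen with earlier results of these data known, so counts over them are descriptions. All members were named, with up to 4 genes of each list, those with the smallest adjusted p in any of the 4 treatment comparisons, and the 3 nearest genes in pattern for DUSP1, DUSP4, DUSP5 and DUSP6.

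Alternatives were RLE factors, no scaling, no filter, a filter of 1 CPM, DESeq2 1.42.0, limma 3.58.1 (voom), a replicate block, counts divided by 4, other sets of libraries in the fit, and each library left out in turn. The direct comparison of both treated groups and the distances between libraries were added after seeing the data. On simulated counts, changes of 2-fold were recovered in 42.9% to 60.4% of planted genes and changes of 1.5-fold in 8.89% to 40%. In the simulated fits the other changes of these sizes were missed, and how often this happens in the data was not measured. The simulated fits called only 98 to 133 genes, against 4668 to 7334 in the 4 treatment comparisons, which made their adjusted threshold stricter. Their recovered shares are thus not a measure of the power of the tests above.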

Additional observations from a re-analysis of the deposited data

Results flagged for a closer look

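For 6 of the 8 tested phosphatase genes the effect of a treatment differed between the lines by a test of the difference itself. That test was the interaction in the edgeR fit of all 24 libraries. It called 19.7% of all genes with the MDM2 shRNA label and 22.3% with the PROTAC. In the direction of MDA-MB-436 these shares were 9.94% and 11.8%. With the MDM2 shRNA label the effect in MDA-MB-436 exceeded that in MDA-MB-231 by 0.68 log2 units for DUSP4, 0.29 for DUSP5, 2.04 for DUSP6, 0.66 for DUSP8, 0.67 for DUSP10 and 0.51 for DUSP16. With the PROTAC it exceeded it by 0.81 for DUSP4, 0.29 for DUSP5, 1.98 for DUSP6, 0.83 for DUSP8, 0.72 for DUSP10 and 0.40 for DUSP16. For DUSP4, DUSP6 and DUSP10 the difference was called in all 20 alternatives under each treatment. For DUSP5 it was called in 12 of 20 and 14 of 20.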

How the results depend on the processing

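The number of tested members called held within 1.5 times in every alternative for all comparisons but 1. With the MDM2 shRNA label in MDA-MB-231, 5 were called, and 3 with no filter on low counts and 3 to 5 when 1 library was left out. The 2 calls lost with no filter were DUSP5 and DUSP16. Leaving out 1 library gave 3 to 5 for the PROTAC in MDA-MB-231, 4 to 4 and 4 to 6 in MDA-MB-436, 4 to 6 for either difference between lines, and 8 to 8 between controls. Signs turned for values near 0. Without scaling these were DUSP5 with the PROTAC in MDA-MB-231 (0.031), MDM2 with the shRNA label in MDA-MB-436 (0.072), and the difference between lines of DUSP7 (0.079 and 0.058). That difference also turned for the shRNA label under RLE factors (0.011), no filter (0.039), a filter of 1 CPM (0.0098) and DESeq2 (0.012), and for the PROTAC under voom (0.0092). Leaving out 1 library moved it from -0.086 to 0.08 and from -0.091 to 0.1, and MDM2 in MDA-MB-436 from -0.27 to 0.13. Same-numbered libraries of the compared groups showed little correlation (-0.049 to 0.059 over genes). Of the 6 libraries of a comparison, 0 to 3 correlated best with their own number. Taken over all tested genes, weakly expressed ones included, such a correlation cannot exclude that same-numbered libraries were handled together. With the replicate block the calls were 5, 5, 4 and 5 in the 4 treatment comparisons, against 5, 4, 4 and 5 without it. The block ended the call of DUSP5 with the shRNA label in MDA-MB-231 (adjusted p = 0.0593) and added DUSP6 there (0.0354) and DUSP16 with the PROTAC (0.0279). Summed over a group, DUSP2 had 0 to 521 counts and DUSP26 37 to 368, so their values rest on few counts.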
